A study of Homo sapiens with 16 samples.

Results

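The genes described here build the route by which a secreted or membrane protein enters the endoplasmic reticulum (ER) and leaves it again. They were chosen by gene symbol, as all genes in the 3 deposited tables whose name starts with SEC, SRP, EMC or TMED and a digit, or is SSR1 to SSR4, SPCS1 to SPCS3 or a COP coat subunit (COPA, COPB, COPE, COPG or COPZ). The rule found 65 of 12587 gene symbols by names alone, though it was set with earlier results of these data known. In every one of the 16 libraries 60 of the 65 were listed. EMC2 and SEC22B were listed in 12 libraries, SEC22A in 14, and TMED6 and the read-through gene TMED7-TICAM2 in 4 each.

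The libraries are ribosome profiling of A549, an established line of human lung carcinoma cells. Each of 8 samples gave a footprint library (mRNA pieces shielded by ribosomes) and an input library (fragmented total RNA, the mRNA level), and the ratio of the 2 is the translation efficiency (TE). In the sgM16 table a control labelled as untreated stands beside 2 hybrid clones made with 1 guide against METTL16, an enzyme that writes N6-methyladenosine on RNA. The series text calls this control sgNS, so whether it carried a guide is uncertain, and guide delivery and cloning cannot be told apart from METTL16 itself. The shM16 table holds replicate 1 of a scrambled hairpin and 1 METTL16 hairpin knockdown labelled shM16-2. In the sheIF4E2 table, replicate 2 of the scrambled hairpin stands beside 2 biological replicates of a hairpin knockdown of eIF4E2, a cap-binding protein known as a brake on translation. Before lysis the medium of all samples had been renewed for 2 h, and cycloheximide (100 µg/mL, 5 min) had been added to hold ribosomes in place.

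In the textbook pathway, the signal recognition particle (SRP) binds a signal sequence as it leaves the ribosome, slows elongation and brings the ribosome to the Sec61 channel. There the TRAP complex assists entry, signal peptidase cuts the signal off, and the ER membrane protein complex (EMC) inserts membrane segments that Sec61 handles poorly. Finished proteins leave in COPII vesicles, often held by p24 cargo receptors, and COPI vesicles bring escaped receptors back. The rule also took SEC14L1, SEC14L2 and SEC14L4, whose names come from yeast Sec14, a lipid transfer protein, and which have no known part in translocation.

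Values are TPM, in which reads are divided by gene length and brought to 1 total per library. Input levels can thus be set side by side between genes. Footprint TPM and TE are per gene length and not per codon, so they compare less surely between genes. The tables list genes with at least 1 TPM of input, which cover 44.6% to 49.8% of the input total and 16.1% to 35.1% of the footprint total. Whole reads recovered from the TPM steps came to 462611 to 699461 per input library and 196995 to 876336 per footprint library, with a median of 18 to 25 and 7 to 30 reads per gene. The input of METTL16 was 12.8 TPM in untreated cells and 6.80 and 6.94 TPM in the guide clones, and went from 11.1 TPM in scramble replicate 1 to 3.5 TPM in shM16. EIF4E2 input stood at 21.4 TPM in scramble replicate 2 and at 7.69 and 3.57 TPM in the eIF4E2 knockdowns. The 5 epithelial markers (KRT8, KRT18, KRT19, EPCAM, CDH1) summed to 345 to 1147 TPM of input. Most of that came from KRT8 and KRT18, at 231 and 304 TPM in untreated cells. EPCAM was not listed in the guide clones or scramble replicate 2. CDH1 had 1.25 TPM in untreated cells and 79.4 TPM in shM16, and was not listed in guide clone 2. The 5 NRF2 targets known to be high in A549 summed to 2594 to 3931 TPM. Of 8 markers of blood, vessel and stromal cells only CD14 and COL1A1 were listed in any library. Their sum was 6.19 to 33.4 TPM of input. COL1A1 was highest in the 2 eIF4E2 knockdowns, at 25.3 and 32.0 TPM. CD14 was highest in scramble replicate 1, at 12.4 TPM, and was not listed in eIF4E2 knockdown 1 and at 1.42 TPM in knockdown 2. The part of these markers in the results was not tested. In bulk RNA, fewer cells of a type and less RNA per cell cannot be told apart.

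The promoters of the pathway are known as targets of the unfolded protein response, in which XBP1 and ATF6 bind elements built around CCACG or ACGTG. RefSeq promoter windows (GRCh38.p14, 250 bases before to 50 after a listed start) were at hand for 60 members, in 79 windows. The 7-base core of the UPRE element, TGACGTG, was found on either strand in 15 of the 79 windows (19%), against 2.45% of the 14667 windows of all genes in the tables and 1.97% of all 35116 windows. It belonged to 13 genes and 14 distinct sites, of which 9 began within 50 bases of the listed start. These sites are shown because the motif is a feature that the rule did not use and that was more frequent in windows of the members than in those of other genes. Each stretch is read 5′ to 3′ on the gene's own strand, with the motif or its reverse complement in capitals:
SEC61A1 (chr3:128052425-128052453, plus strand): cgggctagcacTGACGTGtctctcggcgg
SEC62 (chr3:169966780-169966808, plus strand): cctcctcgctcCACGTCAgagggaaccgg
SSR3 (chr3:156554148-156554176, minus strand): ctgataacagcCACGTCAgcaaggaaact
SSR4 (chrX:153794529-153794557, plus strand): cagggaggggcCACGTCAgtgctgccaga
SEC23A (chr14:39103222-39103250, minus strand): tcccctcctctTGACGTGgcagaggcggc
COPA (chr1:160343228-160343256, minus strand): gagagggtcgcTGACGTGgaggcgtccga
COPB1 (chr11:14499841-14499869, minus strand): ccacccccttcCACGTCAgccaaggactc
COPE (chr19:18919374-18919402, minus strand): ttgcttccggcTGACGTGtctttcaggaa
In SEC61A1 the motif starts 1 base before the listed start, in COPE and SEC23A 4 bases before it, and in COPA 5 bases after it. Of the genes shown, SEC61A1 and SSR4 have the motif in 1 of 2 windows and SSR3 in 1 of 3. Each of those windows belongs to a start inside the gene. The outermost starts lie at 128051641 for SEC61A1, 156555117 for SSR3 and 153794159 for SSR4. The other sites lie in SRP19, SEC13, SEC16A, SEC24A and COPB2, which has 2. On the motif's own strand, 11 of the 14 sites are followed by G. This longer form, TGACGTGG, was looked for after the sites had been seen, and it stood in 11 member windows (13.9%) against 0.873% of windows of all genes in the tables.

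Shorter letters were common in both sets. CCACG stood in 70.9% of member windows and 47.8% of windows of genes in the tables, and ACGTG, which every UPRE core contains, in 55.7% and 25.4%. CCAAT, part of the longer ERSE element, stood in 39.2% and 34.5%. The full ERSE and ERSE-II elements were in no member window, and in 0.123% and 0.0955% of windows of genes in the tables. A start like that of 5′ TOP mRNAs (C and at least 4 pyrimidines after it, sense strand) was listed for SSR2, EMC3, SEC24B, SEC63, COPG2 and TMED3, which is 7.59% of member windows against 5.15%. A match is a description of letters and not of binding. In input relative to all genes, members with a UPRE core had a median of 0.13 in the sgM16 table, 0.40 in shM16 and -0.32 in sheIF4E2, against 0.15, -0.02 and -0.15 in members without it, with ranges that overlap in all 3 tables.

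**Figure D1:**
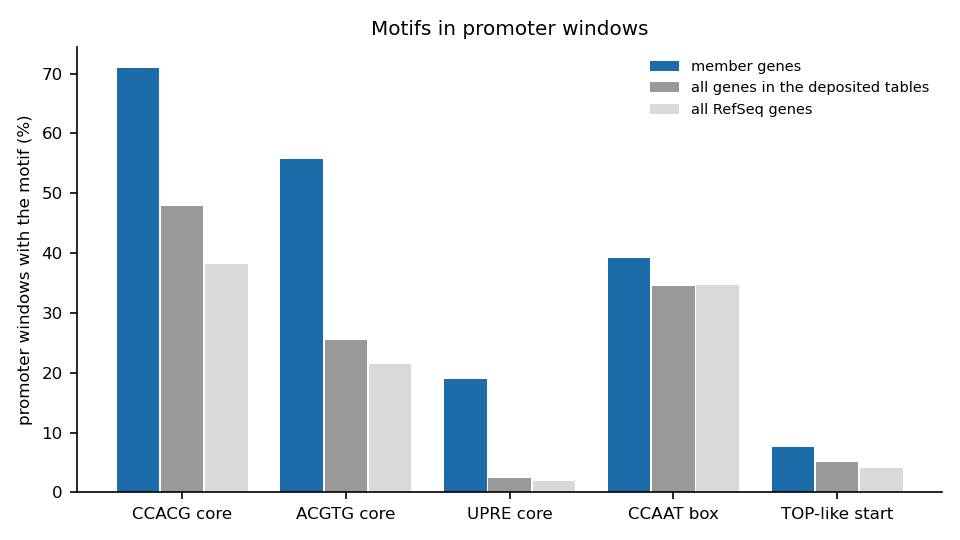
Share of RefSeq promoter windows (y axis, percent) that hold each motif (x axis), for windows of the members, of all genes in the tables and of all RefSeq genes. The UPRE core reaches 19% in member windows and 2.45% in those of genes in the tables, while CCAAT differs little.

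Taken over the 3 controls, the members spanned a wide range of input levels, in which the controls come from separately listed tables. The p24 receptor TMED9 had the highest mean, at 160 ± 34.9 TPM (SD, n = 3), followed by TMED2 at 133 ± 60.5 and EMC7 at 130 ± 42.9. TMED9 was above both in each of the 3 controls, though in scramble replicate 1 it barely exceeded TMED2, at 193.0 against 192.9 TPM. The pore subunit SEC61A1 stood at 128 ± 19.6 TPM, and COPZ1 and SSR3 led COPI and TRAP at 89.6 ± 2.42 and 89.9 ± 44.5 TPM. In TRAP, SSR4 at 85.2 ± 2.60 TPM lay within the spread of SSR3. SEC11A led signal peptidase at 68.0 ± 24.01 TPM, SEC13 led COPII at 53.5 ± 16.6 TPM, and SEC22C, a SNARE-family protein, had 10.8 ± 1.44 TPM. At the low end, SRP19 had 2.47 ± 0.54 TPM and SRP54, the SRP subunit that holds the signal sequence, 4.59 ± 0.77 TPM. Within SRP the input thus ran from 2.47 TPM for SRP19 to 68.4 ± 8.86 TPM for SRP14. Some subunits were steady, with COPZ1 between 87.1 and 91.9 TPM and SSR4 at 82.7, 85.2 and 87.9 TPM. Others differed widely among the same controls, with SSR1 at 7.36 TPM in the untreated control, 56.7 in scramble replicate 1 and 23.98 in scramble replicate 2.

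This spread had a direction. Of the 60 members in all libraries, 45 had their lowest control input in the untreated sample and 36 their highest in scramble replicate 1, against 44.6% and 31.5% of all 8344 genes listed throughout. Summed over the 60 members, input was 1795 TPM in the untreated control, 2762 TPM in scramble replicate 1 and 2442 TPM in scramble replicate 2. The comparisons below each use only 1 of these controls, and what that control's level contributes was not tested.

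**Figure D2:**
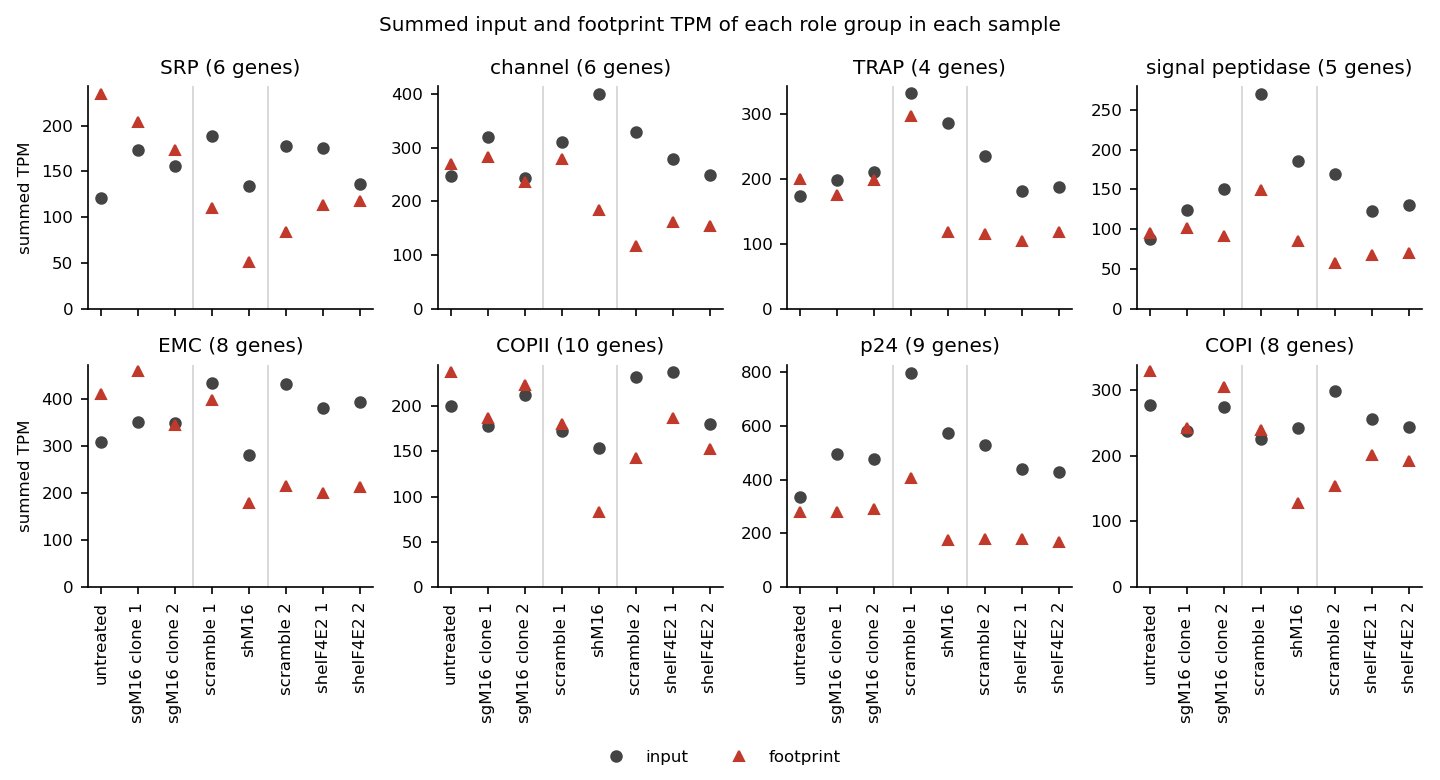
Summed TPM (y axis, from 0) of each role group in the 8 samples (x axis), with circles for input and triangles for footprints and vertical lines between the 3 tables. The untreated control has the lowest input sum for SRP, TRAP, signal peptidase and p24. In every group, shM16 has a lower footprint sum than scramble replicate 1.

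TE was set as log2(footprint TPM + 1) minus log2(input TPM + 1). Footprint TPM is per gene length and not per codon, and what that contributes to the order of genes was not tested. In the controls the highest mean TE was that of SEC62, a channel partner for short and post-translational substrates, at 1.01 ± 1.36 (SD, n = 3), then SRP54 at 0.86 ± 0.68, COPA at 0.60 ± 0.44 and COPB1 at 0.57 ± 0.59. Their differences are within these SDs, which also hold a shift of whole libraries. The TE median of all genes was -0.27 in the untreated control, -0.70 in scramble replicate 1 and -1.33 in scramble replicate 2. The SDs thus do not measure how sure the order of genes is. The lowest was the p24 receptor TMED7 at -2.55 ± 0.41, and its highest value in any of the 8 samples was -1.83. TMED8 followed at -1.72 ± 0.78, EMC10 at -1.66 ± 0.98, TMED2 at -1.44 ± 0.96 and the signal peptidase subunit SPCS2 at -1.40 ± 0.39. Reads of TMED7 may be shared with TMED7-TICAM2, and how they were assigned is not given in the sources used here. Members lay above the TE median of all genes in 35 to 45 of 60 cases, depending on the sample, with 45 in the untreated control.

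**Figure D3:**
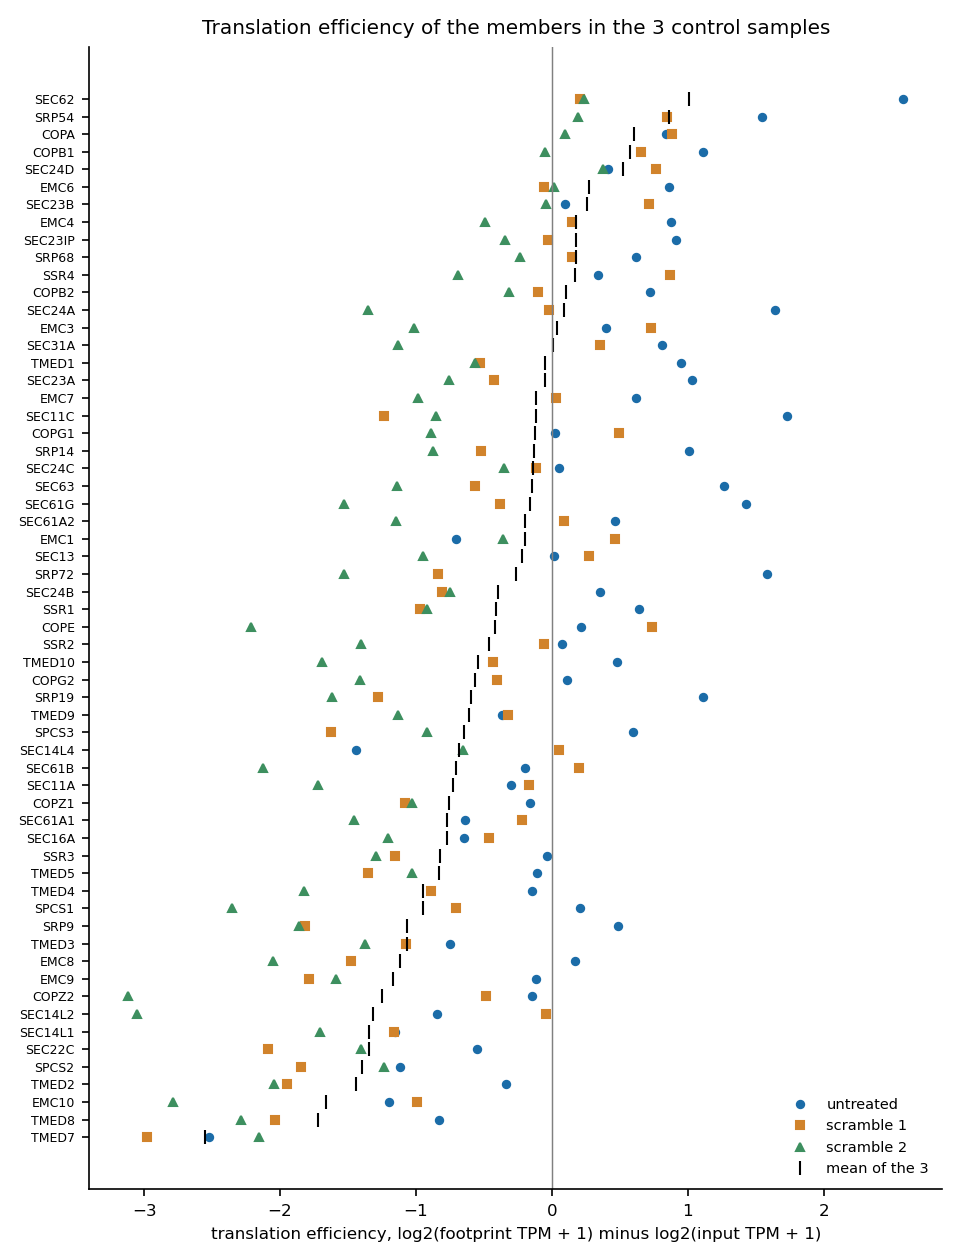
TE of 60 members (rows, ordered by their mean) in the 3 control samples, on a log2 scale (x axis), with a tick at the mean. TMED7 is lowest in the ordering at a mean of -2.55, and the controls of a single gene often lie 1 log2 unit or more apart. The TE median of all genes itself ran from -0.27 in the untreated control to -1.33 in scramble replicate 2.

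The sgM16 comparison asks how METTL16 guide clones differ from the untreated control. No member passed the threshold of 0.05 on the adjusted p in limma (log2 of TPM + 1, Benjamini-Hochberg over 8505 genes) for input, footprints or TE, where 0.0118%, 0% and 0% of all genes did. At an unadjusted p under 0.05, 12 of the 60 members kept for the fit were higher in input and 0 lower, against 743 higher (8.74%) and 174 lower (2.05%) among all 8505 genes. For footprints 1 member was higher and 0 lower, against 170 (2%) and 435 (5.11%) of all genes. For TE 0 members were higher and 8 lower, against 90 (1.06%) and 639 (7.51%). The lowest adjusted p of a member was 0.249 for input, 0.680 for footprints and 0.561 for TE. The voom fit on recovered reads also called 0 members in the 3 measures, beside 0.0705%, 0% and 0% of all genes. All values below are therefore given as measured, with no call. The median gene changed by 0.10 in input, -0.23 in footprints and -0.33 in TE between the clones and the control. Single-gene changes for this comparison hold that shift unless given against the median gene.

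Both clones lay above the control in input for 38 of 60 members and below it for 13, where 43.3% and 29.6% of all genes were. The median change of the members was 0.13 above that of all genes, and 0.067 above it without clone 1. By role, all 5 signal peptidase genes, all 9 p24 genes tested and 5 of 6 SRP genes were higher in both clones. By at least 1 log2 unit in both, 6 of 60 members were higher, against 4.22% of all genes. COPI went the other way, with 1 of 8 higher and 5 of 8 lower in both. These counts turn on the control. Against both scramble controls, 0 of 9 p24 genes, 0 of 5 signal peptidase genes and 1 of 6 SRP genes were above both in the 2 clones, beside 10.9% of all genes. In the same setting, 28 of 59 members were below both (22.9% of all genes), and the median against all genes was -0.23.

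**Figure D4:**
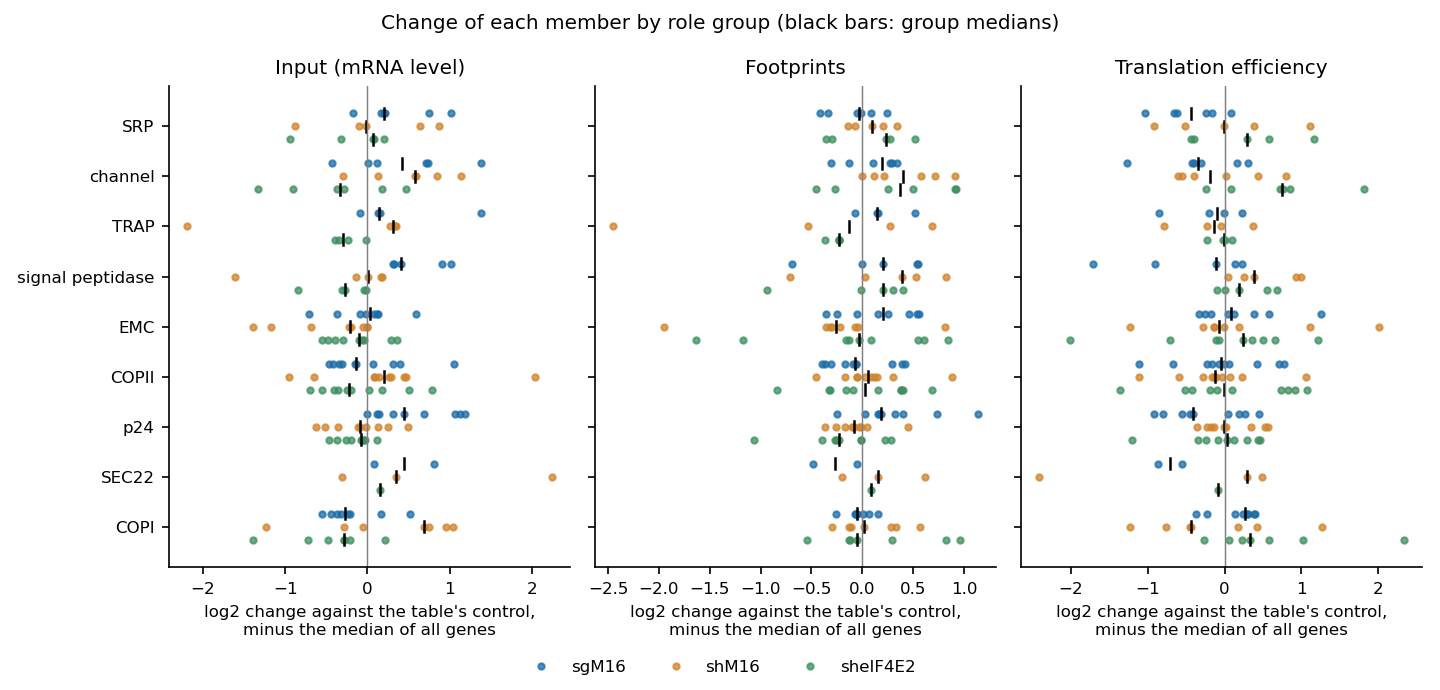
Log2 change of each member against the control of its table, minus the median of all genes (x axis), by role group (rows), in input, footprints and TE, with colours for the tables and black bars for group medians. In input the sgM16 medians of p24 and signal peptidase lie at 0.44 and 0.41, and in TE the sheIF4E2 median of the channel lies at 0.74.

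SSR1, the alpha subunit of TRAP (chromosome 6, 7281143 to 7313199 in GRCh38.p14), had 7.36 TPM of input in untreated cells, while the clones held 22.7 and 21.9 TPM. Both clones were above the control and close to each other, at a log2 change of 1.48 (SE 0.34, adjusted p = 0.249). Reads were 33 in the control and 219 in the clones, a ratio of 3.03 with an exact 95% interval of 2.10 to 4.52 that covers counting error only. Its footprints did not separate in the same way, at 12.1 TPM in its control against 14.3 and 15.5 TPM in both clones. TE was lower in both clones, with changes of -1.28 and -1.11. The other TRAP genes moved less, with SSR2 input at 33.9 TPM in the control, beside 41.5 and 40.0 TPM in the clones.

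TMED10, a p24 receptor that sorts cargo into COPII vesicles (chromosome 14, 75131469 to 75176612), gave 38.3 TPM of input in its control against 91.5 and 83.6 TPM in both clones. The log2 change was 1.17 (SE 0.27, adjusted p = 0.249), with a read ratio of 2.29 (exact 95% interval 1.78 to 2.98). Footprints were 53.9 TPM in the control, beside 47.6 and 54.5 TPM in the clones, with a TE change of -1.25 (SE 0.39, adjusted p = 0.561). TMED1 input was 9.41 TPM in its control against 34.5 and 15.8 TPM in both clones, with 7 reads behind the control value.

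SEC62 input (chromosome 3, 169966807 to 169998373) stood at 2.24 TPM in the control, on 7 reads, and at 10.7 and 5.94 TPM in the clones. Both clones were higher, while its footprints were 18.4 TPM in the control, beside 16.4 and 17.2 TPM in the clones. SRP72, which with SRP68 forms the large protein core of SRP (chromosome 4, 56467617 to 56503681), had 7.01 TPM of input in its control against 14.5 and 18.6 TPM in both clones. Its footprints were 23.0, 18.5 and 20.01 TPM, and its TE change of -1.37 (SE 0.49, adjusted p = 0.561) was the lowest of the members with a mean of at least 10 TPM in both assays. SPCS3, the signal peptidase subunit on which its activity depends (chromosome 4, 176319966 to 176332245), had 13.4 TPM of input in the control, beside 23.5 and 33.1 TPM in the clones. Its footprints were 20.7, 18.5 and 16.4 TPM, and its TE changes were -0.93 and -1.56. For SEC62, SRP72 and SPCS3, input was thus higher in both clones and footprints were lower in both. At least 1 log2 unit of lower TE in both clones was seen in 7 of 60 members, against 9.21% of all genes, which is near the background, and 0 of 60 were higher by as much, against 1.55%.

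The 3 chains of the Sec61 channel differed among themselves. SEC61A1 input was 105 TPM in its control against 127 and 119 TPM in both clones, and its footprints were 67.2, 63.8 and 75.5 TPM. SEC61B, a small tail-anchored subunit (chromosome 9, 99222282 to 99230615), had 105 TPM of input in the control, beside 111 and 61.5 TPM in the clones, which lay on both sides of it. SEC61G, the other small subunit, had 30.3 TPM of input in its control against 66.0 and 45.8 TPM in both clones, with a read ratio of 1.87 (exact 95% interval 1.16 to 3.13).

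EMC6, part of the membrane core of the insertase (chromosome 17, 3668812 to 3669665), was the member with the lowest input change, at 45.9 TPM in the control, beside 39.3 and 22.5 TPM in the clones. Its footprints were 84.3, 144 and 76.2 TPM, and its TE was 0.86 in its control against 1.85 and 1.72 in both clones. The TE change of 0.92 (SE 0.62, adjusted p = 0.701) rests on 14 input reads in the control and 21 in both clones together, and the EMC6 footprint change turned to -0.145 without clone 1. COPE, a COPI subunit, had 70.5 TPM of input in the control, beside 53.6 and 49.2 TPM in the clones, with footprints of 82.0, 56.0 and 60.4 TPM. SEC24C, a COPII cargo adaptor, was lower in input as well, at 19.4 TPM against 16.2 and 13.4 TPM.

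Footprints in the clones were lower in both than in the control for 28 of 60 members and higher in both for 11, near the 52.9% and 18.4% of all genes. The p24 receptor TMED7, at 2.77 TPM against 6.93 and 5.27 TPM on 5 control reads, had the highest change of all members (0.90) and was the 1 with an unadjusted p under 0.05. Among members with a mean of at least 10 TPM in both assays, the high end held EMC1, the large EMC subunit, at 10.3 TPM in its control against 12.6 and 13.6 TPM in both clones, and the catalytic signal peptidase subunit SEC11A at 33.5, 39.2 and 45.3 TPM. The low end of the same members held SEC23A, the COPII subunit that activates the GTPase of the coat, at 28.5, 15.0 and 22.8 TPM, EMC9 at 40.9, 36.0 and 20.2 TPM, and SRP68 at 39.5, 27.8 and 24.9 TPM. There were 4 members under that level that lay lower still, SEC11C at -0.92, SEC22C at -0.71, SRP54 at -0.65 and SEC24B at -0.62. For SEC23A and SRP68 the read ratios were 0.60 (exact 95% interval 0.48 to 0.77) and 0.68 (0.55 to 0.85). TE was lower in both clones for 41 of 60 members, against 55.1% of all genes, and higher in both for 6, against 18%. With both scramble controls the TE median of the members against all genes turned from -0.096 to 0.188. SEC23B and SEC16A, the scaffold of ER exit sites, were among the 6, with TE changes of 0.44 and 0.38.

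The shM16 comparison sets 1 knockdown library of each kind against 1 scramble library and has no replicate check. The footprint level of the median gene was 1.06 log2 units lower in shM16, so that members are best read against that shift. The genes listed held 27.6% of the footprint total in scramble replicate 1 and 16.1% in shM16, on 571482 and 536682 recovered reads. What that smaller share contributes to the shift was not tested. All 59 members measured had fewer footprint TPM in shM16, where 95.2% of all genes did, and their median was 0.01 below that of all genes. In footprints 0 of 59 were higher, against 4.84%. In input, 40 of 59 were lower and 19 higher, against 71.2% and 28.8% of all genes. In TE, 51 of 59 were lower and 8 higher, against 84.3% and 15.7%. By at least 1 log2 unit, 18 members were lower in TE, against 36% of all genes, and 1 was higher, against 2.01%.

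SSR2, the beta subunit of TRAP (chromosome 1, 156009048 to 156020951), had the lowest input change of the members with a mean of at least 10 TPM in both assays. It had 52.8 TPM of input in scramble replicate 1 and 8.43 TPM in shM16, and 50.8 and 3.55 TPM of footprints. Reads were 120 and 34 in input, a ratio of 0.16 (exact 95% interval 0.11 to 0.24), and 216 and 31 in footprints, a ratio of 0.07 (0.05 to 0.10). In the other 6 samples SSR2 input ran from 33.9 to 41.5 TPM, and its METTL16 guide clones were not below their control. The remaining TRAP genes had shM16 inputs close to their control, with SSR1 at 56.7 and 57.5 TPM, SSR3 at 137 and 138 TPM and SSR4 at 85.2 and 82.3 TPM. Over all members, 9 of 59 were lower in input by at least 1 log2 unit, where 11.9% of all genes were, and in TRAP SSR2 was the 1 of 4.

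SPCS3 input stood at 74.0 TPM in scramble replicate 1 and 18.6 TPM in shM16, on 173 and 77 reads, with footprints of 23.3 and 6.13 TPM. EMC8, a cytosolic EMC subunit, had 38.5 and 11.1 TPM of input, and its paralog EMC9 had 53.3 and 25.9 TPM. Footprints of EMC9 were 14.7 and 0.957 TPM, the latter on 2 reads. EMC6 input was 37.9 and 12.8 TPM, on 10 and 6 reads, so that its TE change of 1.25 has little depth behind it. SRP9, which with SRP14 makes the elongation-arrest domain, had 64.5 and 27.5 TPM of input, a read ratio of 0.43 (0.27 to 0.67), while SRP14 had 77.1 and 57.1 TPM.

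Other members had more input in shM16. SEC61B had 45.9 TPM in scramble replicate 1 and 81.8 TPM in shM16, SEC61A1 had 137 and 197 TPM, and the COPI subunit COPB1 34.4 and 57.2 TPM. Their read ratios were 1.78 (1.05 to 3.16), 1.44 (1.23 to 1.69) and 1.66 (1.23 to 2.27). COPE had 23.4 and 36.7 TPM of input and 39.6 and 14.8 TPM of footprints, which gave the lowest TE change among members with a mean of at least 10 TPM in both assays, at -1.99. SRP68 followed at -1.68, with 13.2 and 19.8 TPM of input and 14.8 and 6.19 TPM of footprints. SSR4 stood at -1.54, with footprints of 157 and 51.2 TPM. The TE change of the median gene was -0.76. At the other end of the footprints stood SEC61G, at 59.3 TPM in scramble replicate 1 and 53.3 TPM in shM16.

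**Figure D5:**
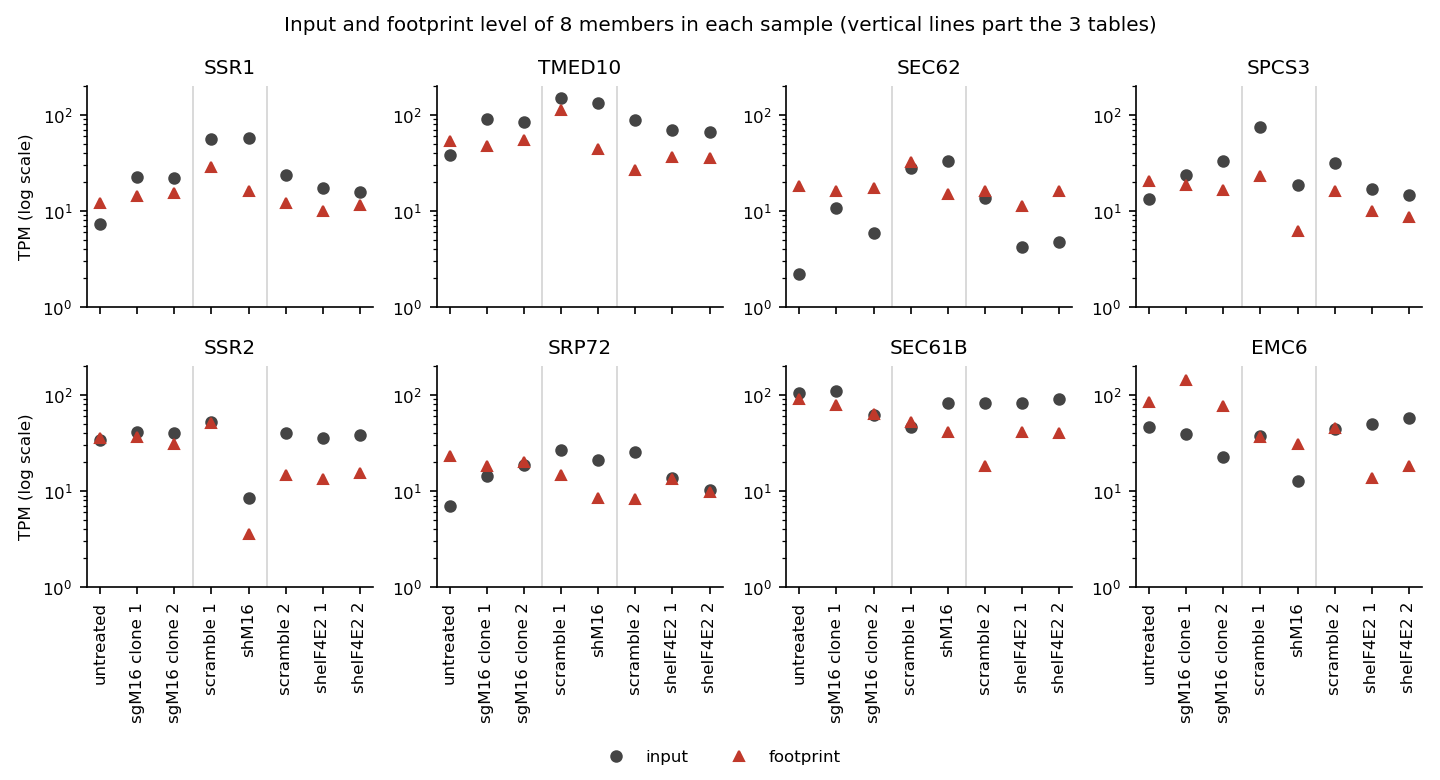
Input (circles) and footprint (triangles) TPM of 8 members in each of the 8 samples, on a log scale from 1 to 200 TPM, with vertical lines between the tables. SSR2 stands at 8.43 TPM of input and 3.55 TPM of footprints in shM16, and SSR1, TMED10 and SEC62 have their lowest input in the untreated control.

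The sheIF4E2 comparison asks how the eIF4E2 knockdown differs from scramble replicate 2. No member passed the adjusted threshold in limma over 8597 genes for input, footprints or TE, where 0.0116%, 0.628% and 0% of all genes did. At an unadjusted p under 0.05, 0 of 59 members were higher and 3 lower in input, against 266 (3.09%) and 355 (4.13%) of all 8597 genes. In footprints 7 were higher and 2 lower, against 1163 (13.5%) and 251 (2.92%), and in TE 9 were higher and 1 lower, against 688 (8%) and 119 (1.38%). The lowest adjusted p was 0.519, 0.10 and 0.475 in that order. The voom fit on recovered reads called 3 of 59 members in input, near the 4.09% of all genes it called there, and 0 in footprints and TE, beside 0.582% and 0%. The 3 were SEC62, at -1.49 (limma with voom, adjusted p = 0.0203), SPCS3, at -0.88 (adjusted p = 0.0495), and SEC14L1, at 0.79 (adjusted p = 0.0428).

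Input was lower in both knockdowns for 40 of 59 members and higher in both for 9, where 46% and 30.1% of all genes were. The median of the members was 0.21 below that of all genes. The median gene itself changed by -0.10 in input, 0.20 in footprints and 0.32 in TE. The single-gene changes that follow for this comparison still hold that shift. All 4 TRAP genes, 8 of 9 p24 genes, 6 of 7 COPI genes and 4 of 5 signal peptidase genes were lower in both. So were 7 of 9 EMC genes, 6 of 10 COPII genes and 4 of 6 channel genes, while 2 in each of these groups were higher in both. SRP had 1 of 5 lower and 1 higher in both, with a median 0.065 above that of all genes. The 1 SEC22 gene tested was neither. SEC62 input was 13.7 TPM in the control, beside 4.24 and 4.73 TPM in the knockdowns, a read ratio of 0.33 (exact 95% interval 0.20 to 0.54), while its footprints were 16.3, 11.3 and 16.1 TPM. SRP72 input was 25.6 TPM against 13.7 and 10.3 TPM, a ratio of 0.47 (0.32 to 0.68), and SPCS3 input 31.5 TPM against 16.9 and 14.8 TPM, a ratio of 0.50 (0.37 to 0.69). For SPCS3 the footprints were lower as well, at 16.2 TPM against 9.93 and 8.75 TPM. SEC24B, a COPII adaptor, had 15.9 TPM of input against 10.6 and 7.18 TPM. SEC24C ran opposite to its paralog, at 16.1 TPM against 27.4 and 25.4 TPM, a ratio of 1.64 (1.09 to 2.54).

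Footprints were higher in both knockdowns for 29 of 59 members, close to the 48% of all genes, and lower in both for 13, close to 22.6%. Of the 60 members in all libraries, 46 had their lowest control footprints in scramble replicate 2, against 56.4% of all 8344 genes. Another 9 were lowest in scramble replicate 1 and 5 in the untreated control. In the untreated control and scramble replicate 1, footprints were 91.0 and 52.9 TPM for SEC61B and 82.0 and 39.6 TPM for COPE. What the level of scramble replicate 2 contributes to footprint and TE changes here was not tested. SEC61B had 18.3 TPM of footprints in its control against 41.3 and 40.0 TPM in both knockdowns, a log2 change of 1.11 (SE 0.24, adjusted p = 0.109). Behind these stood 7 reads in the control and 31 in the knockdowns, with a ratio of 2.22 whose exact 95% interval, 0.96 to 5.98, includes 1. The reads of these 3 footprint libraries were halved after 99.7% to 99.8% of their recovered values came out even. Without halving, an alternative added after seeing the data, SEC61B had 14 and 62 reads and an interval of 1.23 to 4.30. The interval lay above 1 for 9 of 62 members and below 1 for 3 with halving, and for 15 and 4 without. COPE footprints were 14.3 TPM against 26.1 and 34.6 TPM, at 1.02 (SE 0.30, adjusted p = 0.164) and a ratio of 2.16 (1.17 to 4.31). SEC23A footprints were 13.5 TPM against 23.5 and 28.3 TPM, with a ratio of 1.94 (1.34 to 2.86). On the low side, EMC6 had 45.0 TPM of footprints against 13.9 and 18.4 TPM, at -1.44 (SE 0.30, adjusted p = 0.10). That value rests on 11 reads in the control and 8 in the knockdowns. TMED1 footprints were 15.1 TPM against 5.68 and 10.6 TPM.

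TE was higher in both eIF4E2 knockdowns for 43 of 59 members, against 52.8% of all genes, and lower in both for 6, against 19.4%. By at least 1 log2 unit in both, 8 members were higher, against 10.1% of all genes, and 1 was lower, against 2.5%. COPG2 and SEC63 had the highest TE changes of all members, 2.65 and 2.13, on 6 and 8 footprint reads in the control. Among members with a mean of at least 10 TPM in both assays SRP72 was highest, with a TE of -1.53 in the control and -0.03 and -0.08 in the knockdowns, a change of 1.48 (SE 0.55, adjusted p = 0.521). SEC23A TE was -0.76 against 0.21 and 1.06, and COPE TE -2.21 against -1.19 and -0.55. SEC31A, which builds the outer COPII cage, and SEC61G had changes of 1.23 and 1.09, each at least 1 in both knockdowns. EMC6 was the 1 member with TE lower by at least 1 in both, at 0.01 in the control and -1.77 and -1.59 in the knockdowns. Among the same better-covered members TMED1 followed at -0.89, and SEC13, the other outer-cage subunit, at -0.19, with 1 knockdown above the control and 1 below. Without replicate 2 the SEC13 change was 0.257.

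Footprint levels differed widely between subunits of the same complex. In SRP, footprint TPM in the untreated control ran from 5.34 for SRP19 to 121 for SRP14, and SRP19 was listed at 0 in 1 of the eIF4E2 knockdowns. The SD of log2 footprint TPM over the 6 SRP genes was 1.37 to 2.01 across the 8 samples, and that over the 8 EMC genes listed in every library was 1.05 to 1.72. Footprints per codon need protein lengths that were not used here, so these are levels per gene length. By TPM, the 3 chains of the Sec61 channel gave 67.2, 91.0 and 82.9 footprint TPM for SEC61A1, SEC61B and SEC61G in the untreated control, and 51.0, 18.3 and 25.7 TPM in scramble replicate 2. SEC61A2, the paralog of SEC61A1, stayed at 2.42 to 9.57 TPM in all 8 samples.

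Across the 8 samples, the footprint profile of SEC61B was most like that of PML (Pearson r = 0.97), NFKBID (0.96) and ZFYVE19 (0.96) among genes outside the pathway, and of SEC61G (0.92), COPE (0.88) and SRP72 (0.88) within it. The 8 points share their tables and library depth, and the values are a description.

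Other genes of the pathway were read from 3 lists, and 0 genes of any list passed the adjusted threshold in any of the 6 fitted contrasts in limma. At an unadjusted p under 0.05 in sgM16 input, 5 of 30 further translocation and glycosylation genes were higher and 0 lower. For further early secretory genes, 6 of 35 were higher and 1 lower. For markers of the unfolded protein response, 2 of 12 were higher and 0 lower. Among all 8505 genes, 743 (8.74%) were higher and 174 (2.05%) lower at that p. In sheIF4E2 input the lower counts at that p were 0 of 28, 2 of 36 and 3 of 12, beside the 355 of 8597 among all genes. CCDC47, a partner of Sec61 for multispanning proteins, had the highest sgM16 input change of the first list, at 1.93 (adjusted p = 0.186). Among several chaperones on the list of response markers, HSP90B1 changed by 2.03 (adjusted p = 0.223) in sgM16 input, from 4.06 TPM in untreated cells. DNAJB9 changed by -2.12 (adjusted p = 0.513) in sheIF4E2 input, where only 3 and 8 reads stood behind the knockdown values. In sgM16 input 6 of the 12 markers were higher in both clones, against 43.3% of all genes. There were 2, HERPUD1 and CRELD2, lower in both, against 29.6%. The median of the 12 was 0.115 above that of all genes. In sheIF4E2 input 11 of 12 were lower in both knockdowns, where 46% of all genes were, with a median of -0.313 against all genes. HSPA5 input, the classic readout of the response, was 78.7 TPM in untreated cells, 106 and 104 TPM in their guide clones, 177 and 201 TPM in scramble replicate 1 and shM16, and 114, 89.3 and 82.9 TPM in scramble replicate 2 and the eIF4E2 knockdowns. Its order over the controls, lowest in the untreated sample and highest in scramble replicate 1, is that of the summed members. HSP90B1, DNAJB9, DNAJB11, PDIA4, MANF and HERPUD1 had that order too, but the other markers did not. ATF4, XBP1, HYOU1, CRELD2 and DDIT3 were highest in scramble replicate 2, and SDF2L1 was lowest there. Whether these markers and the members are linked was not tested.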

How the data were processed

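The authors deposited 3 tables of TPM per gene, 1 for each comparison, each with a footprint and an input column per sample. Per the submitters' processing notes, the tools were featureCounts 2.0.1, STAR 2.7.5c, cutadapt 2.8, Bowtie2 2.2.5 and Bowtie 1.3.0, and the build GRCh38. No source used here gives the gene lengths behind TPM. Every value column was mapped to a sample, and 0 were left out.

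Changes were fitted on log2(TPM + 1) with limma 3.58.1 in R 4.3.3, as group means of treatment and assay over the 6 libraries of a table, with an intensity trend and Benjamini-Hochberg adjustment at 0.05 over all genes with a mean of at least 1 TPM in both assays. That leaves 2 residual degrees of freedom, and the lone control is assumed to vary like the treated pair, so p-values measure the spread between those 2 samples, which may be technical. TE changes are differences between the footprint and the input change. With 1 sample on each side, shM16 gives values only. The fit was tested on simulated data.

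TPM values were whole multiples of 1 read for 11892 of 11892 genes with at least 2 values (tolerance 1e-09), apart from a multiplier that all libraries of a gene share. Of the recovered values in the 3 sheIF4E2 footprint libraries, 99.7% to 99.8% were even, and they were halved. The recovered reads gave ratios with 95% intervals (Clopper-Pearson, exact) for the counting error alone, and limma's voom with median-of-ratios library sizes as an alternative. The planned TMM scaling of that fit was replaced after the data were seen, since it needs a count tool not used on TPM. Footprint density per codon was planned, but protein lengths were not used here, so TPM took its place.

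Named members are those past the threshold, those at least 1 log2 unit away in every treated sample, the 3 highest and 3 lowest per contrast (both at a mean of at least 10 TPM in both assays), the leading member of each role group and the 3 Sec61 chains. Others are named to account for the members and were picked after their values were seen. The members and lists were chosen with earlier results of these data known. RefSeq names matched 12355 of 12587 symbols, and sequences and coordinates are RefSeq's, GRCh38.p14. Several members (SRP14, SPCS2, SEC22B, SRP68 among them) have named pseudogene copies that may share their reads. Alternatives were another pseudocount, other filters and scalings, voom, all 16 libraries together, a replicate block for TE, another control, reads not halved and leaving out each treated sample. Python 3.11.15, pandas 2.3.3, scipy 1.17.1 and matplotlib 3.10.9 were used.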

Additional observations from a re-analysis of the deposited data

Results flagged for a closer look

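In 8 cases over 58 members both METTL16 guide clones and the METTL16 hairpin knockdown lay on opposite sides of the change of the median gene, each by at least 0.5 log2 units from that median. That is 3 members in input, 1 in footprints and 4 in TE. These counts are near the background, since the same held for 4.56%, 2.57% and 6.7% of the 7503 genes in both tables. The difference was not tested, since the knockdown is 1 sample. Each comparison also has its own control. Untreated cells held 13.4 TPM of SPCS3 input, 22.8 of SRP9, 9.41 of TMED1 and 3.08 of SEC11C. For scramble replicate 1 these inputs were higher, at 74.0, 64.5, 27.9 and 19.2 TPM. SEC23B went the other way, with 36.7 TPM for untreated cells and 22.9 for scramble replicate 1. What the controls contribute was not tested. The changes that follow are log2 changes minus the median of all genes, and the difference is clones minus knockdown. SPCS3 input was 0.72 and 1.07 higher in the clones and stood at -1.61 in the knockdown, a difference of 2.51. Its TE was -0.67 and -1.15 in the clones and 0.93 in the knockdown, a difference of -1.84. SRP9 input was 0.77 and 0.69 in the clones and -0.88 in the knockdown, a difference of 1.61, and its TE differed by -1.76, from -0.75 and -0.56 to 1.11. TMED1 input was 1.72 and 0.52 in the clones and -0.62 in the knockdown, a difference of 1.74. SEC23B TE was 0.85 and 0.69 in the clones and -0.60 in the knockdown, a difference of 1.37. SEC11C footprints were -0.90 and -0.51 in the clones and 0.82 in the knockdown, a difference of -1.53. SEC11C TE was -1.99 and -1.44 in the clones and 0.99 in the knockdown, a difference of -2.70, and its input rests on 5 reads in the untreated control.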

How the results depend on the processing

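Over the alternatives run, 0 members were called in every contrast except sheIF4E2 input, where voom, with a scaling chosen after seeing the data, called 3. With a replicate block for TE 0 members were called in both tables; the paired numbers join the 2 assays of a sample, and the deviations of input and footprints correlated at r = 0.15 (sgM16) and -0.02 (sheIF4E2) across genes. The medians of the members against all genes moved more. For sgM16 input the median of 0.13 became 0.230 with quantile normalization and 0.067 to 0.153 when 1 clone was left out, the lower value without replicate 1. With both scramble controls in place of the untreated one, an alternative chosen after seeing the data, it became -0.229, that of footprints -0.113 and that of TE 0.188. With a mean of at least 10 TPM the medians were 0.178 for sgM16 footprints, -0.011 for sgM16 TE, 0.172 for shM16 footprints, 0.135 for shM16 TE and -0.119 for sheIF4E2 footprints. For shM16 footprints the value was also 0.126 with a pseudocount of 0.1, 0.148 with median-of-ratios scaling and 0.216 with both scramble controls, and for shM16 TE 0.086 with that pseudocount. Leaving out 1 treated sample gave 0.008 to 0.099 for sgM16 footprints, -0.124 to -0.024 for sgM16 TE, -0.209 to -0.150 for sheIF4E2 input, -0.016 to 0.021 for sheIF4E2 footprints and 0.088 to 0.145 for sheIF4E2 TE. Of the single-gene values, 402 kept direction and side of the threshold and 2 changed sign, EMC6 footprints in sgM16 (-0.145 to 0.768 when 1 clone was left out) and SEC13 TE in sheIF4E2 (-0.635 to 0.257 when 1 knockdown was left out), while SPCS3 input in sheIF4E2 passed the threshold with voom (-0.885). The cause was not tested. A median of 7 to 30 footprint reads per gene limits single genes. Without halving the reads of the 3 sheIF4E2 footprint libraries, an alternative added after seeing the data, 15 members in place of 9 had a ratio interval above 1.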
